A study of Drosophila melanogaster with 2 samples.

Results

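None of the 180 odorant (Or), gustatory (Gr) and ionotropic (Ir) receptor genes of Drosophila melanogaster had an Hr96 peak of the final list. This holds within 500 bp of a start site and inside the gene. The final list was chosen by agreement between replicates, and weaker calls, some of them found in both replicates, are described below. The receptor genes are the protein-coding genes whose symbols begin with Or, Gr or Ir followed directly by a digit, together with the co-receptor gene Orco. They make up 60 Or, 60 Gr and 60 Ir genes of 13945 protein-coding genes in all. The members were chosen by symbol in the Ensembl annotation of the BDGP6 assembly, which has the dm6 sequence.

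Hr96 belongs to the nuclear receptors, a family of transcription factors, and is best known from sterol and lipid handling and from defence against toxic compounds. Its genomic sites were mapped by chromatin immunoprecipitation and sequencing (ChIP-seq) in whole adult females of 1 transgenic genotype that stably expresses Hr96 fused at its C-terminus to eGFP, with an antibody to GFP, although a label also names Hr96 itself as the antibody. The 1 group holds 2 biological replicates, numbered 1 and 3, both called against 1 shared control file, and no sample lacks the fusion. The age of the flies is given as unknown. The read total of each library is not given in the sources used here, and background signal of the precipitation cannot be told apart from binding of the fusion.

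Odorant receptors are membrane proteins of olfactory neurons that form ion channels with the shared co-receptor Orco. Gustatory receptors detect sugars, bitter compounds and, for Gr21a with Gr63a, carbon dioxide. Ionotropic receptors are relatives of synaptic glutamate receptors that detect acids, amines, temperature and humidity, and many of them work with the co-receptors Ir8a, Ir25a, Ir76b or Ir93a. Each receptor is typically made by a small set of sensory neurons, so chromatin of those neurons is a small share of whole-animal chromatin. Whether a peak limited to such neurons could be seen in it was not tested.

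Sequences are shown first for the peaks that lie nearest to receptor genes and then for the stretch just before the start site of 5 receptor genes. The first set holds the bases around the summit, the position of highest signal in a peak, for 4 peaks of the final list, each on the plus strand of dm6 and cut short where an annotated untranslated region begins. The second set holds the 120 bases before the annotated transcription start site (TSS), in the direction of the gene. Capitals mark any of 5 motifs searched on both strands, which are TATCGATA (the DRE, bound by DREF), GGTCACAC (the core of the site bound by M1BP), AGGTCA (the nuclear receptor core site), TATAAA (the TATA box) and GAGAG (the GAGA element). AGGTCA and GGTCACAC can overlap. The bases come from the RefSeq copy of dm6.
Peak beyond the end of Ir68b, at yps (chr3L:12125151-12125225, plus strand): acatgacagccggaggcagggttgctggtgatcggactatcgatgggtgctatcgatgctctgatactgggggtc
Peak near Gr94a, at p53 (chr3R:23054083-23054177, plus strand): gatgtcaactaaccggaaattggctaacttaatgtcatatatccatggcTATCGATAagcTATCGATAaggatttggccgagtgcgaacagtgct
Peak near Or85f, at CG34117 (chr3R:9400067-9400167, plus strand): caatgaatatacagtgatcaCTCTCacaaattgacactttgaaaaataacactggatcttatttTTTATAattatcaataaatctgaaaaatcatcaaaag
Peak beyond the end of Gr89a (chr3R:16497553-16497653, plus strand): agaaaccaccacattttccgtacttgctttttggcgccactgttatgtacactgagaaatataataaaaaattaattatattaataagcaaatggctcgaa
Before the Gr77a start (chr3L:20739431-20739550, minus strand): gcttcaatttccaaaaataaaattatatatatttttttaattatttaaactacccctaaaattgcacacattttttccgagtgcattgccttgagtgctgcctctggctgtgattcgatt
Before the Or82a start (chr3R:4256852-4256971, plus strand): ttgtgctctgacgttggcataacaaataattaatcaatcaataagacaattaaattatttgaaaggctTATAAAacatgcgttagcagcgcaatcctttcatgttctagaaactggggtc
Before the Or22b start (chr2L:1522577-1522696, plus strand): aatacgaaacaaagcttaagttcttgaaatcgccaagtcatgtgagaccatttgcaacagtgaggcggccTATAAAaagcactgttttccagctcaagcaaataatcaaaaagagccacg
Before the Orco start (chr3R:5412407-5412526, minus strand): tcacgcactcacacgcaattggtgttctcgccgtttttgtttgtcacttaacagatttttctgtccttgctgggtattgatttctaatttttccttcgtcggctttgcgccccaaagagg
Before the Ir8a start (chrX:9236586-9236705, minus strand): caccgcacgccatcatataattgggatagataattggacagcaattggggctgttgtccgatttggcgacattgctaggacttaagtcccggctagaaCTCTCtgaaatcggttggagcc
The p53 stretch held 2 copies of the DRE. The stretches at yps and beyond Gr89a held none of the 5 motifs. The TATA box stood before Or82a and Or22b, and not in the 120 bases shown for Gr77a, Orco and Ir8a.

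No receptor gene had a summit of the final list near a start, which means here within 500 bp of any of its TSSs. That list was thresholded by the irreproducible discovery rate (IDR), a measure of agreement between replicates, and is called the IDR list below. Not every peak in it was matched in both replicates. The count was 0 of 180, which allows a share of up to 1.67% when 3 counts are taken as the limit of a 0, and the exact Clopper-Pearson 95% interval is 0 to 2.03%. Among the other 13765 protein-coding genes 2526 had such a summit, or 18.4% (interval 17.7 to 19.0%). Each family on its own gave 0 of 60, which allows up to 5.0% by the limit of 3 counts (interval 0 to 5.96%). Intervals and limits cover counting error only, and they treat genes as independent although neighbouring receptor genes share DNA. No IDR summit lay inside a receptor gene either, from the annotated start to the annotated end, whereas 11.0% of the other genes held at least 1. The 180 gene bodies cover 0.472 Mb, counting shared bases once, so 0 summits allow up to 6.36 per Mb by the same limit (interval 0 to 7.82). The bodies of other genes held 24.4 IDR summits per Mb (interval 23.4 to 25.5).

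The gap around receptor genes was wider than the 500 bp window. Within 1000 bp of a TSS the count was still 0 of 180, against 20.8% of other genes. Within 2000 bp it was 4 genes (2.22%) against 24.6%, and within 5000 bp 22 genes (12.2%) against 36.0%. Within 10000 bp it reached 56 genes (31.1%, interval 24.4 to 38.4%) against 50.2%. The nearest IDR summit lay a median of 17340.5 bp from a receptor TSS, with a lowest value of 1332 bp at Gr39b and a highest of 333471 bp at Ir41a, beside a median of 9924 bp for other genes. The families differed in this distance, with medians of 39869.5 bp for Or, 12290.5 bp for Gr and 13426.0 bp for Ir genes. Within 10000 bp there were 7 of 60 Or genes (11.7%, interval 4.82 to 22.6%), 25 Gr genes (41.7%, interval 29.1 to 55.1%) and 24 Ir genes (40.0%, interval 27.6 to 53.5%). No difference between families was tested.

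**Figure D1:**
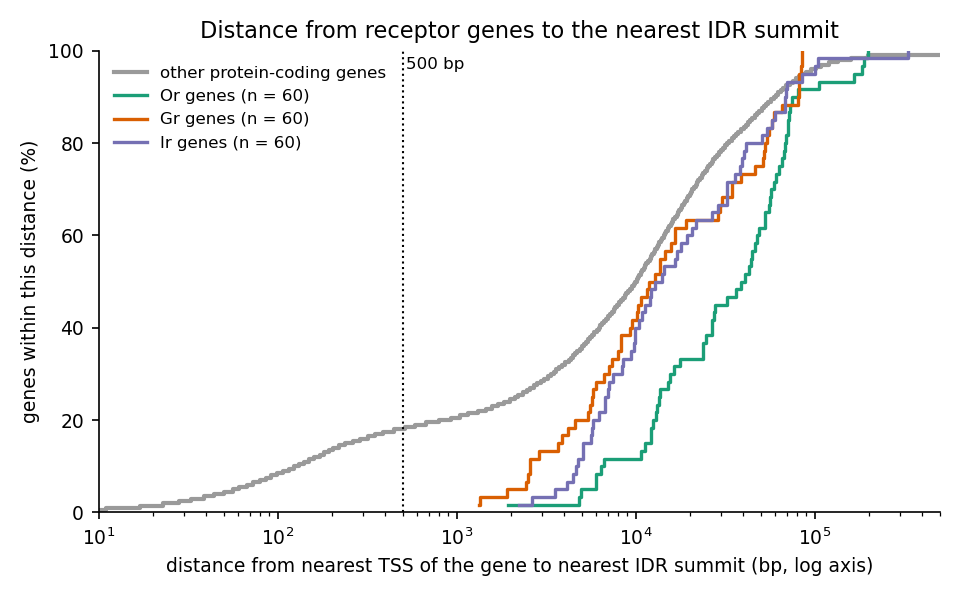
Percent of genes (vertical axis) whose nearest TSS lies within a given distance of an IDR summit (horizontal axis, bp, log scale), for the 60 Or, 60 Gr and 60 Ir genes and for other protein-coding genes; each coloured step is 1 gene and the dotted line marks 500 bp. The receptor curves begin at 1332 bp (Gr), 1927 bp (Or) and 2219 bp (Ir), and the Or curve lies furthest to the right.

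Receptor genes differ from other genes in how they are annotated, and among the other genes the IDR share differed with this annotation. Of the 180 receptor models 130 (72.2%) have no annotated 5' untranslated region (UTR), so that the stated start is the first coding base, against 361 (2.62%) of the other genes. The share was 71.7% for Or, 65.0% for Gr and 80.0% for Ir genes. Among the other genes without a 5' UTR only 4 of 361 (1.11%, interval 0.303 to 2.81%) had an IDR summit near a start, and among those with one 18.8% of 13404 had it. Receptor genes with an annotated 5' UTR gave 0 of 50 (interval 0 to 7.11%), and those without one gave 0 of 130 (interval 0 to 2.80%). The interval of the 50 genes lies below 18.8%, while that of the 130 genes overlaps the share of other genes annotated in the same way. The part that gene models, or whatever else such genes share, have in the count was not tested.

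Other properties of the genes were also set beside the count. Receptor genes are short, with a median of 1691.5 bp against 2183 bp, 167 of them (92.8%) have 1 annotated TSS against 73.2%, and 35 (19.4%) have the TSS of another gene within 1000 bp against 43.2%. Among genes with 1 TSS the IDR share was 0 of 167 against 13.0% of other genes. Among genes with no other TSS within 1000 bp it was 0 of 145 against 12.2%. Among genes of 1 TSS, no other TSS within 1000 bp and a length between the 5th and 95th percentiles of receptor genes, it was 0 of 125 (interval 0 to 2.91%) against 215 of 2685 (8.01%, interval 7.01 to 9.10%). Other genes with these traits thus had fewer peaks than other genes at large, and the receptor interval lay below theirs. These other genes were not matched on 5' UTR annotation, and the part that the traits have in the count was not tested. Receptor genes are found on 5 of the 6 chromosome arms analysed, and the count was 0 on each, including 0 of 25 on the X, where 14.9% of other genes had a summit.

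Weak calls, in contrast, were found at receptor genes. The deposited pooled list and the list of each replicate hold 30000 peaks and background regions each, ranked here by signal. In the pooled list every region outside the IDR list has a lower rank than the IDR peaks. In the pooled list 43 receptor genes (23.9%, interval 17.9 to 30.8%) had a summit near a start, against 39.7% of other genes. In replicate 1 it was 46 (25.6%) against 39.2%, and in replicate 3 it was 42 (23.3%) against 44.5%. Inside gene bodies the receptor genes came closer to the others. A pooled summit lay in 68 bodies (37.8%, interval 30.7 to 45.3%) against 37.5%. Replicate 1 gave 83 bodies (46.1%, interval 38.7 to 53.7%) against 38.2%, and replicate 3 gave 51 (28.3%, interval 21.9 to 35.5%) against 41.2%. The replicates thus lay on opposite sides of the other genes. Per Mb of gene body the pooled list held 225 summits in receptor genes (interval 184 to 272) and 213 in other genes. Replicate 1 held 263 and 213, and replicate 3 held 170 and 219.

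The receptor share at starts fell short of the other genes in the strongest class in all 3 lists, and in the middle class in the pooled list and replicate 3. The strongest class holds as many regions as the IDR list has peaks, and in the pooled list those are the IDR peaks, with a share of 0 against 18.4%. From there to rank 15000 it was 20 genes (11.1%, interval 6.92 to 16.6%) against 17.7%, and from there to rank 30000 it was 26 (14.4%) against 11.3%. In replicate 1 the same classes gave 0 against 18.8%, 23 (12.8%, interval 8.28 to 18.6%) against 15.6%, and 28 (15.6%) against 11.1%. In replicate 3 they gave 1 gene (0.556%) against 18.6%, 12 (6.67%, interval 3.49 to 11.4%) against 21.9%, and 32 (17.8%) against 13.9%. In each of the 3 lists the weakest class was at least as frequent at receptor starts as at other starts, although the interval of the receptor share includes the other share in every case. In gene bodies the weakest pooled class had 157 summits per Mb of receptor genes (interval 123 to 197) and 106 per Mb of other genes. In replicate 1 it had 178 (interval 142 to 220) and 107, and in replicate 3 it had 112 (interval 84.1 to 147) and 107, so that the higher density was seen in replicate 1 and the pooled list and not in replicate 3. The middle pooled class had 67.8 (interval 46.4 to 95.7) and 83.0.

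**Figure D2:**
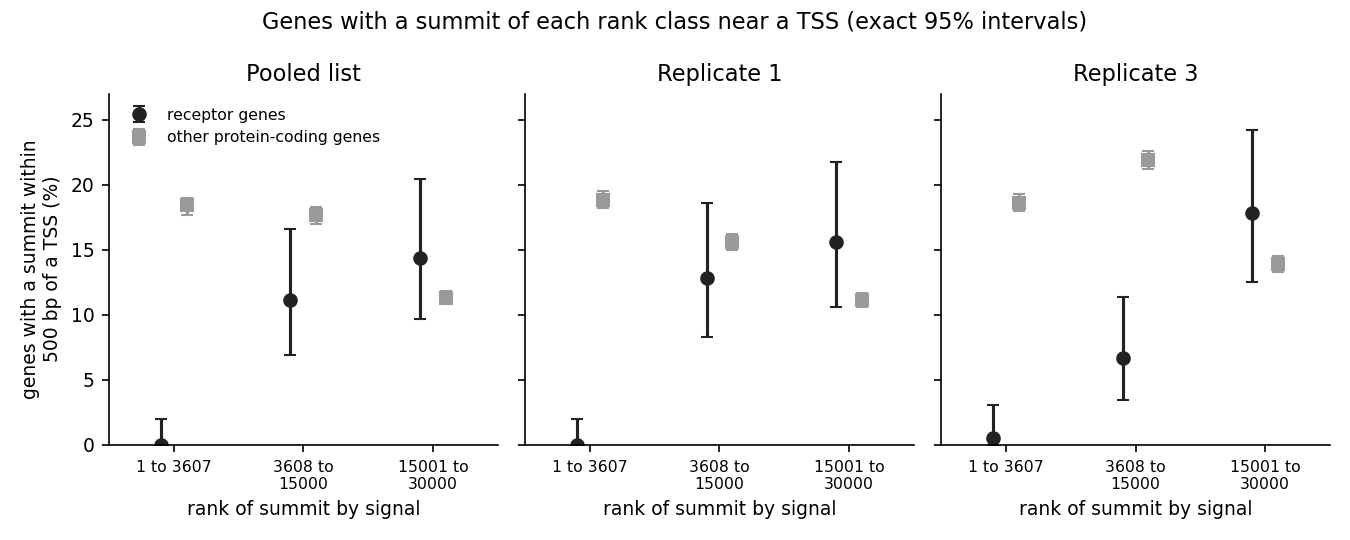
Percent of genes with a summit within 500 bp of a TSS (vertical axis) in 3 classes of signal rank (horizontal axis), in the pooled list and in each replicate, for the 180 receptor genes (black circles) and 13765 other protein-coding genes (grey squares); bars are exact 95% intervals. In the strongest class the receptor share is 0, 0 and 0.556% and in the weakest class it is 14.4, 15.6 and 17.8%.

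The signals behind these calls all lay below those of the IDR peaks. This follows from the count of 0, because the IDR peaks are the strongest regions of the pooled list. The 43 pooled calls at receptor starts ranked from 5228 to 29540 with a median of 15907.0. Their signals ran from 45.1 down to 21.3, with a median of 27.4, while the lowest signal of an IDR peak was 59.9. Their −log10 q-values ran from 0.433 to 0.167, and the lowest of an IDR peak was 0.874. The whole pooled list had a median signal of 27.9, so the receptor calls sat at its middle. The signal scale differs between libraries and was compared only within a list.

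Of the 180 genes, 105 had no summit near a start in any list, 30 had one in replicate 1 and not in replicate 3, 26 in replicate 3 and not in replicate 1, 16 in both, and 3 in the pooled list alone. The 16 are 8.89% of the receptor genes (interval 5.17 to 14.0%), against 28.7% of other genes, which were also called more often in each replicate. They are 2 Or, 11 Gr and 3 Ir genes. Their names are Or82a, Or85d, Gr22e, Gr28b, Gr58a, Gr58b, Gr63a, Gr64b, Gr64c, Gr64e, Gr77a, Gr98b, Gr98d, Ir52d, Ir56b and Ir75c. When the same summit was required to recur within 100 bp in both replicates, 12 of the 43 pooled calls passed (27.9%), against 800 of 2937 other genes (27.2%) whose strongest pooled summit was below the IDR peaks. By family the count was 0 of 14 Or, 10 of 18 Gr and 2 of 11 Ir genes. Some of these calls are shared, since the 43 genes have 41 distinct summits.

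**Figure D3:**
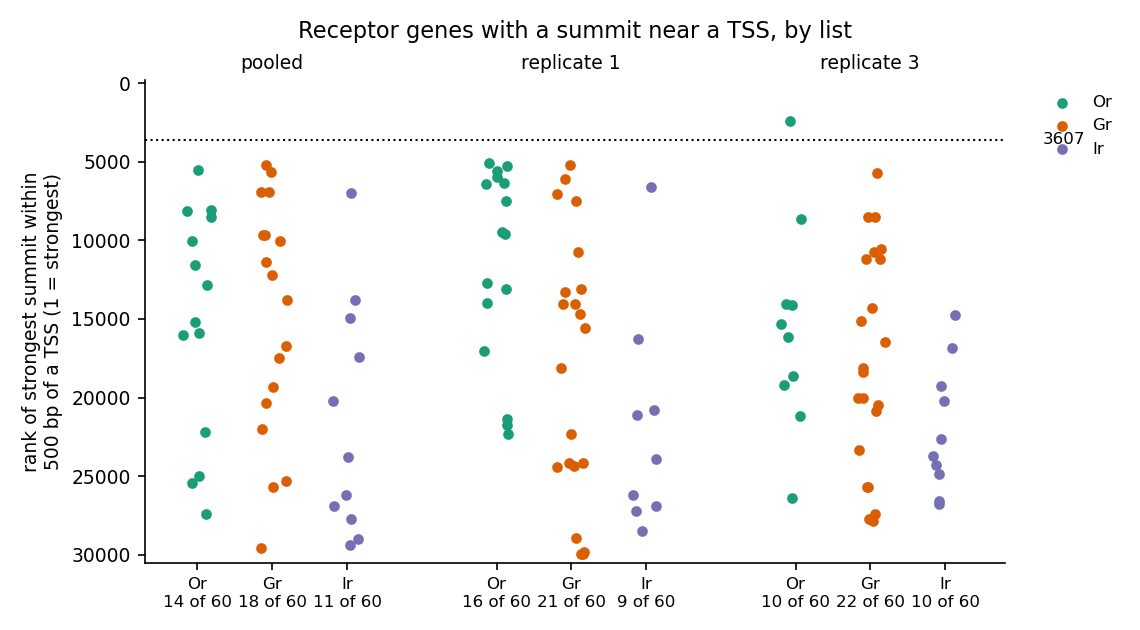
Rank by signal of the strongest summit within 500 bp of a TSS (vertical axis, 1 at the top) for each Or, Gr and Ir gene that has one, in the pooled list and in each replicate; each point is 1 gene, the numbers below give how many of 60 have one, and the dotted line marks the number of peaks in the IDR list. Only Or49b in replicate 3, at rank 2432, lies above the line.

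The strongest pooled call at a receptor start belonged to Gr77a (FBgn0045474, 3L, 20737569 to 20739430, minus strand), a gustatory receptor gene that lies inside CG13252 and for which 120 upstream bases are shown above. The summit was 195 bp from the TSS, inside the gene, with pooled signal 45.1 and rank 5228. Its rank was 7506 in replicate 1 (signal 24.8) and 5746 in replicate 3 (signal 20.9). The call was thus of like rank in both replicates and outside the strongest class in each. Next was Or82a (FBgn0041621, 3R, 4256972 to 4258444, plus strand), an odorant receptor gene, with pooled signal 43.4 and rank 5558. Its replicate summits, of ranks 5285 and 8634, lay 422 and 178 bp from the TSS, so they are not the same position. Gr28b (FBgn0045495, 2L, 7454826 to 7462247, minus strand), whose products take part in warmth and light sensing, had pooled signal 43.1 and rank 5628, 113 bp from 1 of its 5 TSSs. In replicates 1 and 3 its summits lay 107 and 102 bp from a TSS, with ranks 5237 and 15105.

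Gr58a and Gr58b, divergent neighbours on 2R, shared 1 pooled summit of rank 6920, which lay 177 and 6 bp from their starts and ranked 14043 and 8542 in replicates 1 and 3. Ir52d, of a family of taste ionotropic receptors, had rank 6977, with replicate ranks 6602 and 16843. Or49b was the exception among the members. Its start on 2R had a summit in replicate 3 at 94 bp, with rank 2432, signal 36.4 and a −log10 q-value of 1.77, and no replicate 1 summit within 500 bp, the nearest being 727 bp away. The pooled rank was 8040 (signal 35.5) and the region is not in the IDR list. Or22b and the palp receptor gene Or59c were the reverse case, with pooled ranks 8112 and 8501, replicate 1 ranks 5991 and 5603, and no replicate 3 summit within 500 bp. Gr64b and Gr64c, sugar receptor genes with the same annotated span and 1 TSS in common, shared a pooled summit of rank 9671 that ranked 29947 in replicate 1 and 11165 in replicate 3.

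The 5 co-receptor genes, on which whole groups of receptors depend, had 0 pooled summits near a start (interval 0 to 52.2%). One was found at 23.9% of all receptor genes and 39.7% of other genes. Of the 180 receptor genes, 105 had no summit near a start in any list. Orco (FBgn0037324, 3R, 5407183 to 5412406) had no summit within 500 bp of its 2 TSSs in any list. Its nearest pooled summit was 1150 bp away and its nearest IDR summit 38751 bp away. Ir8a (FBgn0052704, X, 9232726 to 9236585), Ir25a (FBgn0031634, 2L, 4830846 to 4835300) and Ir93a (FBgn0259215, 3R, 20851709 to 20859945) likewise had none in any list. Ir76b (FBgn0036937, 3L, 20108484 to 20111534) had 1 in replicate 3 of rank 14727 and signal 13.0, and none elsewhere. Inside gene bodies, Ir76b held 1 summit in each of the pooled (rank 29474), replicate 1 (rank 15070) and replicate 3 lists, the last being the one near its start. Orco (rank 25919), Ir25a (rank 27488) and Ir93a (rank 11699) each held 1 in replicate 1 only, and Ir8a held none.

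Receptors of a named role were described by counts. None of the 8 role lists, which run from 2 to 17 genes, had a member with an IDR summit near a start, against 18.4% of other genes, and lists this small say little alone. The counts of pooled summits near a start that follow stand beside 39.7% of other genes. The 9 sugar receptor genes had 4 members with a pooled summit, all in the Gr64 cluster, and none at Gr5a, Gr61a or the fructose receptor gene Gr43a. Of the 2 carbon dioxide receptor genes, Gr63a was called in the pooled list (rank 10015, 204 bp from the TSS), in replicate 1 (rank 6076) and in replicate 3 (rank 20004). Its partner Gr21a had a summit near a start in replicate 1 alone, at rank 15578, and a replicate 3 summit of rank 13806 inside the gene. The 5 widely used bitter receptor genes Gr32a, Gr33a, Gr39a, Gr66a and Gr89a had no pooled or replicate 1 summit near a start, and replicate 3 gave Gr66a (rank 14319) and Gr89a (rank 10762). Inside its body Gr39a held 2 pooled summits, with a best rank of 13975, 3 of replicate 1 and 2 of replicate 3, and Gr33a held 1 of replicate 3. Of 17 ionotropic receptor genes of the antenna 4 had a pooled summit, Ir64a, Ir75b, Ir75c and Ir75d, and only Ir75c had one in both replicates. Of 7 maxillary palp Or genes 2 had a pooled summit, and of 4 Or genes for odours of other flies (Or47b, Or65a, Or67d and Or88a) none did.

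The longest receptor gene held the most weak summits, in counts not scaled by length. All receptor bodies together held 225 pooled summits per Mb. Ir41a, an amine receptor gene whose model spans 104437 bp on 2R, held 20 pooled summits, 19 of replicate 1 and 19 of replicate 3. Their best ranks were 7901, 6463 and 7675, and its nearest IDR summit was the farthest of all members. Ir40a, which is needed for dry-air sensing and spans 24851 bp, held 4 pooled summits. Receptor genes also stand in clusters, with 80 of them in 28 runs of 2 or more neighbours, and no IDR summit lay between the first start and the last end of any run. The Gr64 cluster of 6 sugar receptor genes on 3L (4026769 to 4037575) held 6 pooled, 4 replicate 1 and 6 replicate 3 summits, with the nearest IDR summit 2829 bp outside it. The Ir7 cluster of 5 genes on the X (7874394 to 7886976) held 0, 1 and 1.

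The IDR peaks nearest to receptor genes mostly stood at the start of another gene. The closest to any receptor start was 1332 bp from Gr39b (FBgn0041245, 2L, 21367908 to 21369706) and 189 bp from the TSS of CG8665, with signal 72.5 and rank 2815. The strongest of the 12 closest lay 2219 bp from the Ir68b start (FBgn0036250, 3L, 12125487 to 12127394), 312 bp beyond its 3' end and 25 bp from the TSS of yps, a gene for a Y-box protein that binds mRNA in the ovary. It had signal 350 and rank 255, with ranks 196 (signal 274) and 625 (signal 79.6) in replicates 1 and 3, and part of its sequence is shown above. No list had a summit within 500 bp of the Ir68b start. Or85f (FBgn0037685, 3R, 9398190 to 9399551) lay 1927 bp from a peak at CG34117, 64 bp from the TSS of that gene, with signal 83.2 and rank 2360. A stronger peak stood further along at 3097 bp, between the ribosomal protein gene RpL34b and CG8132, with signal 556, rank 83 and replicate ranks 75 and 164.

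Ir25a, the broad co-receptor gene, lay 2641 bp from a peak at the start of its upstream neighbour tank, 58 bp from that TSS, with signal 270, rank 433 and replicate ranks 394 and 724. Gr94a (FBgn0041225, 3R, 23051689 to 23052903) lies inside p53, the tumour suppressor gene, on the opposite strand. The peak at the start of p53, 45 bp from the TSS and 2438 bp from the Gr94a start, had signal 72.7 and rank 2802. It was matched in replicate 1 (rank 1986) and had no replicate 3 summit within 100 bp. Just outside that distance, a replicate 3 summit of rank 7391 (signal 18.1) lay 2319 bp from the Gr94a start. The sequence of the p53 peak, shown above, is the one with 2 DRE copies. Gr63a lay 2568 bp from a peak of rank 3444 at Ccz1, 15 bp from the TSS, and the acid receptor gene Ir75a lay 3522 bp from one of rank 3594 at Cln3, 280 bp away.

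**Figure D4:**
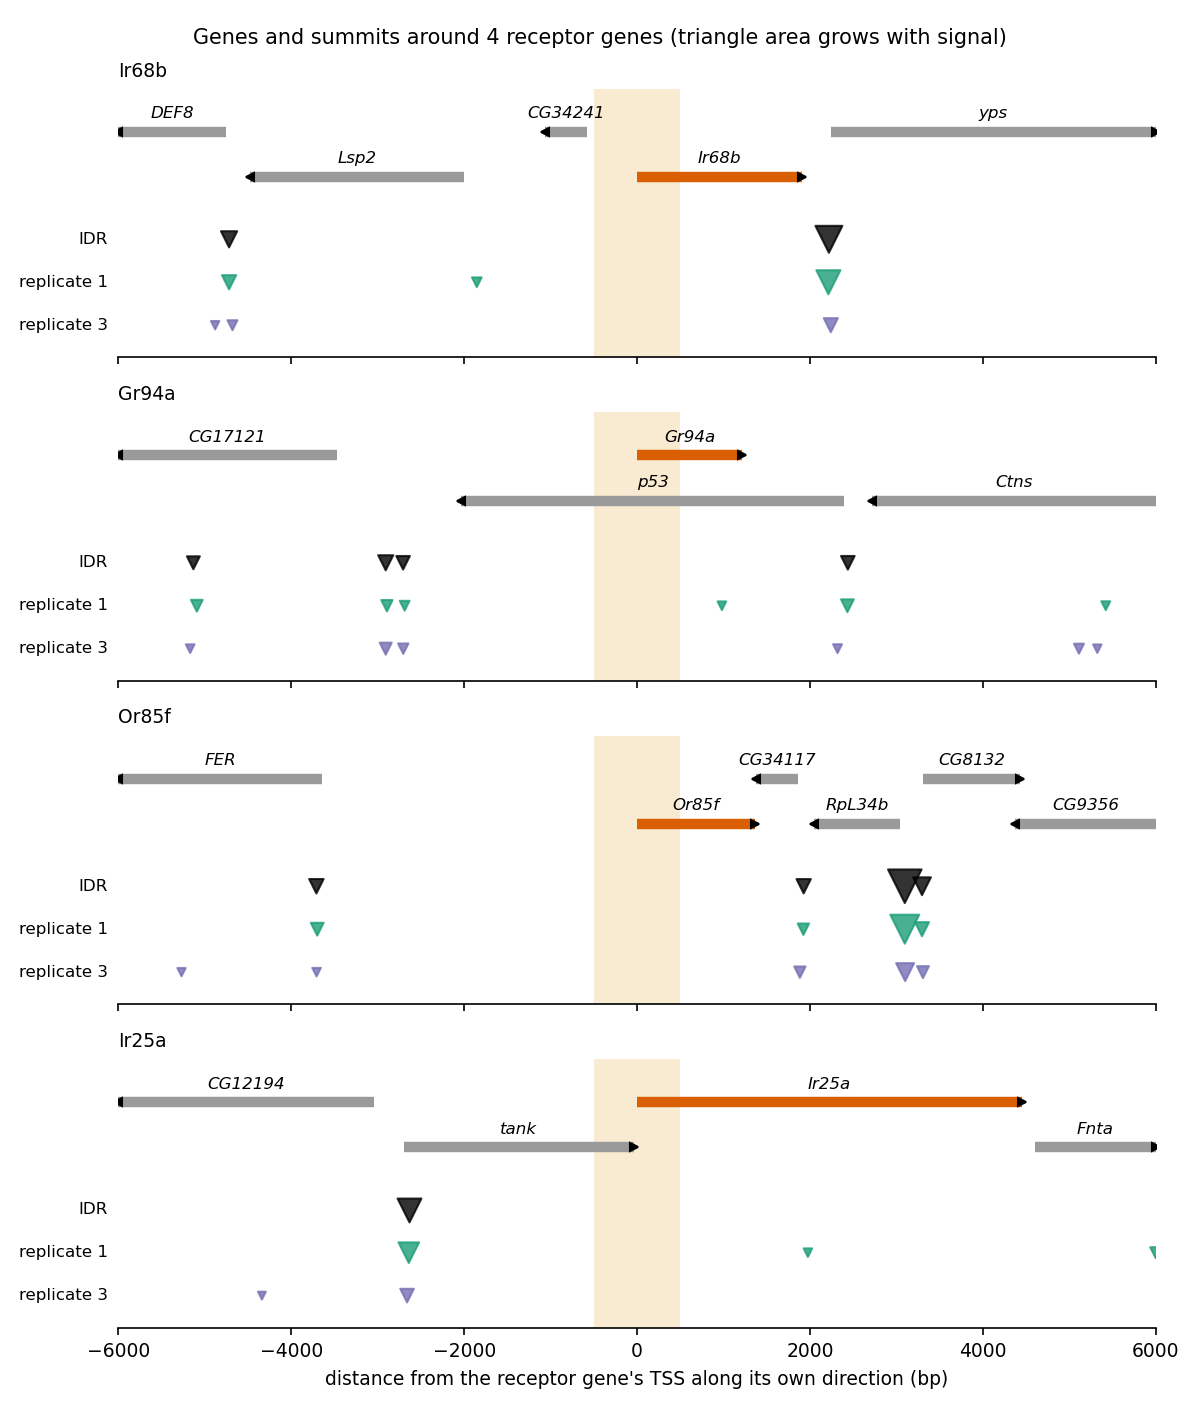
Protein-coding genes (bars with an arrow for direction, receptor gene in orange) and summits (triangles, area growing with signal) of the IDR list and both replicates within 6000 bp of the starts of Ir68b, Gr94a, Or85f and Ir25a; the horizontal axis is the distance from the receptor TSS in bp along the receptor gene and the shaded band is 500 bp to each side. Each shaded band is empty, and the largest triangles stand at yps (2219 bp), at 3097 bp beside RpL34b, and at tank (-2641 bp).

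In 4 of the 12 cases the nearest peak was more than 500 bp from the start of every other protein-coding gene as well. Distances to the starts of noncoding genes were not measured. That near Gr89a (FBgn0038440, 3R, 16497817 to 16498959), a bitter receptor gene, lay 214 bp beyond its 3' end and 2181 bp from the nearest other TSS, of Cad89D, with signal 60.1 and rank 3595. That near Gr28a lay 225 bp beyond its 3' end and 1051 bp from santa-maria, a scavenger receptor gene of carotenoid uptake, with rank 3441. Both rank near the end of the IDR list, and both were matched in the replicates, at ranks 3154 and 8333 and at 3435 and 8619. The peak 2501 bp upstream of Gr93d was strong, with signal 333, rank 278 and replicate ranks 347 and 218, and its nearest other TSS, of glec, was 7106 bp away. The peak near the trehalose receptor gene Gr5a lay inside its neighbour Tre1 and had rank 1187.

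Neighbouring genes of the receptors did have IDR peaks. The nearest other gene on each side of a receptor gene gave 248 genes, of which 39 (15.7%, interval 11.4 to 20.9%) had an IDR summit near a start, an interval that includes 18.4%. Of the 73 that begin or end within 1000 bp of the receptor gene, 10 did (13.7%, interval 6.77 to 23.8%). The strongest was CG1888 on 2R, with rank 17 and signal 1100, 12408 bp from Or45b. Next came yps and tank. A further member is Myd88 of the Toll pathway (rank 635), whose summit lay 36531 bp from the Or45a start. Another is mxc of the histone locus body (rank 651, 7045 bp from Ir8a and with no replicate 3 match). The glutamine synthetase gene Gs2 (rank 893) lay 6234 bp from Or10a by its summit, and Acat1 (rank 1215) 4139 bp from Ir7g. Separately, 25 receptor genes lie wholly inside another protein-coding gene. Of the 24 genes that hold them, 5 (20.8%, interval 7.13 to 42.2%) had an IDR summit at a start, namely Mondo around Gr39a, row around Ir51b, nord around Ir60a, p53 around Gr94a and CG42233 around Ir100a. None of the 24 held an IDR summit inside its own body, against 11.0% of other genes, and 24 genes are few.

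Receptor promoters also differed from others in their motifs, counted from 250 bases before to 50 after the 5'-most TSS. The DRE was found in 1 of 180 receptor promoters (0.556%), that of Gr68a, a gene nested in loaf, against 9.48% of other genes and 9.37% of all. GGTCACAC was found in 0 of 180 against 7.81% of other genes and 7.71% of all. Among the other genes these motifs were somewhat more frequent at starts with an IDR peak, with 12.7% against 8.76% for the DRE and 10.1% against 7.30% for GGTCACAC. GAGAG was also more frequent there, with 34.1% against 29.0%. AGGTCA and TATAAA were less frequent there, with 4.87% against 6.08% and 42.8% against 46.4%. AGGTCA was found in 16 receptor promoters (8.89%) against 5.86% of other genes and 5.89% of all. TATAAA was found in 98 (54.4%) against 45.7% and 45.9% of all, with 78.3% for Or, 30.0% for Gr and 55.0% for Ir genes. GAGAG was found in 20.6% against 29.9% and 29.8% of all. A TATAAA on the gene's own strand that began 20 to 40 bases before the stated start was rarer, with 5 of 180 (2.78%) against 7.86%. With 72.2% of the receptor models starting at the first coding base, the stated start is often not a measured one. Base composition was similar, with a median GC content of 39.5% against 37.9%. Motifs are matches of letters, no link of any of them to the absence of IDR peaks was tested, and windows around the IDR summits themselves, of 101 bp, held the DRE in 2.63% and AGGTCA in 1.77%.

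**Figure D5:**
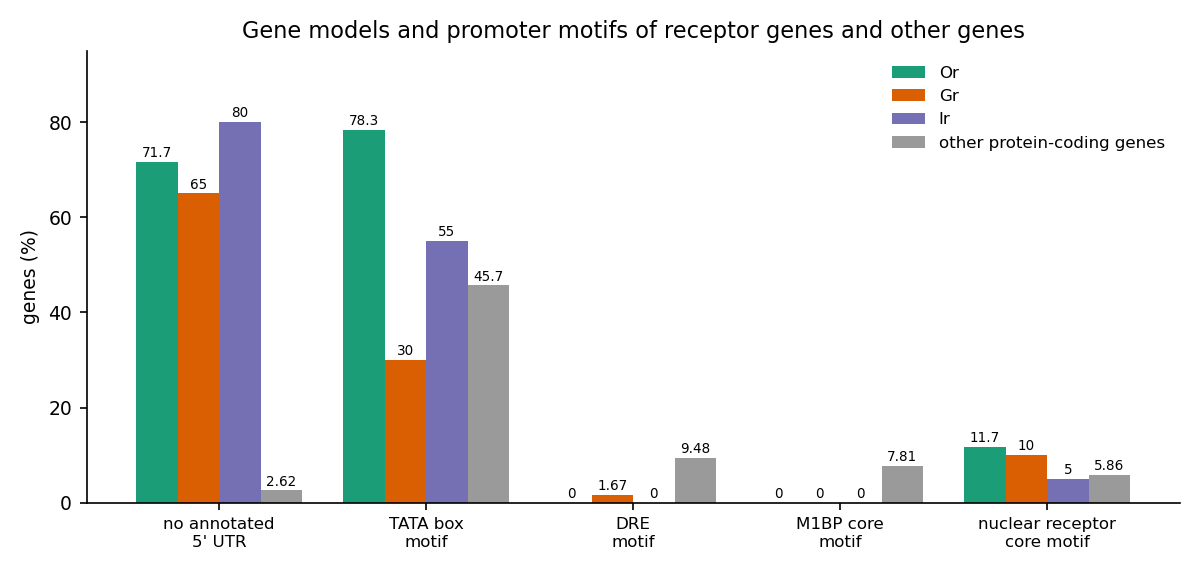
Percent of Or, Gr and Ir genes (60 each) and of other protein-coding genes whose model has no annotated 5' UTR, and whose promoter window holds each of 4 motifs on either strand. The receptor families stand at 65.0 to 80.0% without a 5' UTR against 2.62%, and at 0 to 1.67% for the DRE against 9.48%.

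Other genes of chemosensation were described in the same way. Of the genes outside the receptor families, 18.4% had an IDR summit near a start and 11.0% held one inside the gene. IDR summits near a start were found at 1 of 52 odorant-binding protein genes, 0 of 20 CheA and CheB genes, 0 of 2 sensory neuron membrane protein genes, 0 of 29 ppk channel genes, 0 of 7 rhodopsin genes and 0 of 13 synaptic glutamate receptor genes. The 1 binding protein gene was Obp99b, with rank 1739 and replicate ranks 1341 and 6526. Of 16 TRP channel genes Trpm alone had one near a start, with rank 421, and Trpm, Trpgamma and pain held IDR summits inside the gene. Of 12 genes of signal transduction there were 2 (16.7%), the G protein subunit gene Galphao (rank 1898) and the lipid transfer protein gene rdgB (rank 799). Neither of them was matched in replicate 1. In the same list norpA (best rank 15) and rut (rank 3600) held IDR summits inside the gene. Of 14 transcription factor genes of sensory neuron identity there were 2 (14.3%), Xbp1 of the unfolded protein response (rank 581, replicate ranks 630 and 553) and Eip93F (rank 2712, no replicate 1 match), which also held IDR summits inside the gene. These lists are small, and a share of 0 of 20 still allows up to 15.0% by the limit of 3 counts (interval 0 to 16.8%).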

How the data were processed

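ChIP-seq of Hr96-eGFP was measured in 2 biological replicates of whole adult females. Per the deposited text lists, the authors called 30000 peaks and background regions per replicate and on pooled alignments, against 1 shared control file, and derived the IDR list from them on dm6. The deposited signal is the peak strength that the caller gave against the control, and the deposited −log10 q-value stands beside it, both read by the narrowPeak column order. These are the authors' own values and only describe and rank peaks within a list. How reads were aligned and peaks called and thresholded is not given in the sources used here. Control libraries were not analysed, and the dm3 lists were not used for lack of a dm3 annotation.

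Genes were taken from Ensembl release 115 on 6 chromosome arms, and sequence from the RefSeq copy of dm6. A call was a summit within 500 bp of any TSS or inside a gene, and summits within 100 bp were matched. Shares have exact Clopper-Pearson 95% intervals, and no set test was run. The counting steps were tested on simulated data. The members and the gene lists were chosen with earlier results of these data known. Named genes are receptor genes with an IDR summit (there were none), the 10 with the strongest pooled summit at a TSS, and Orco, Ir8a, Ir25a, Ir76b, Ir93a, Gr21a and Gr63a. The 12 receptor genes nearest to an IDR summit, the bound neighbours and members of the lists were named after their values were seen. Alternatives varied the window, the TSS, the peak set and the genes counted, and left out each replicate in turn. Python 3.11.15 was used with SciPy 1.17.1, pandas 2.3.3, matplotlib 3.10.9 and numpy 2.4.6.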

Additional observations from a re-analysis of the deposited data

How the results depend on the processing

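The share of receptor genes with an IDR summit near a start was 0 or 0.556% in all 10 alternatives. The 0.556% is Or49b, found when replicate 1 was left out, and it was 0 without replicate 3. The share with a summit inside the gene was 0 in 5 of 6 alternatives and 1.67% with bodies extended by 500 bp, for Gr89a, Gr28a and Ir68b. The density in gene bodies was 0 per Mb in all 5. The share of other genes moved to 15.2% with a 250 bp window, 20.8% with 1000 bp, 16.2% with the 5'-most TSS, 11.4% with the stronger 1803 IDR peaks, 15.4% with the 2888 IDR peaks matched in both replicates and 13.0% in genes with 1 TSS. It was 18.6% with the strongest regions of replicate 3 alone and 18.8% with those of replicate 1 alone. The receptor share in the pooled list moved to 12.2% with 250 bp and 40.0% with 1000 bp, in replicate 1 to 12.8% and 46.1%, and in replicate 3 to 16.7% and 38.3%. Counting only genes with an annotated 5' UTR, an alternative chosen after seeing the data, gave 0 of 50 receptor genes, 18.8% of other genes, and 22.0, 28.0 and 26.0% of receptor genes in the pooled, replicate 1 and replicate 3 lists. No paired analysis was possible because there is 1 group and no test between groups. Depth is unknown, so a peak too weak to be listed cannot be told apart from no peak, and 2 replicates measure little of the spread between animals.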
